A study of Mus musculus with 20 samples.

Results

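The GIMAP family (GTPases of immunity-associated proteins) was followed through long-term culture of mouse T cells, using the 8 listed genes Gimap1, Gimap3, Gimap4, Gimap5, Gimap6, Gimap7, Gimap8 and Gimap9. They were taken by symbol from a table of 49671 genes, and all 8 were found. Cells of the spleen and the inguinal lymph nodes were enriched for CD8 or CD4 T cells and activated on plates coated with antibodies to CD3 and CD28 in medium with human IL-2 at 1 ng/mL, for 72 hours where the cells were polyclonal and came from albino B6 mice, or for 24 hours where they were transgenic and came from Marilyn-BLITC and MataHari-BLITC mice. They were then expanded in human IL-7 at 10 ng/mL and IL-15 at 50 ng/mL, and CD44+CD62L+ cells, which carry both markers that define central memory cells, were sorted to a stated purity above 97% before polyA RNA was sequenced. The 20 libraries form 4 groups of 5: CD8 week 1 and CD4 week 1 after 4 days of expansion, CD8 week 4 after 25 days, and CD4 week 3 after 18 days. All 4 groups received IL-7 and IL-15, so no group shows the genes without these cytokines. The labels do not say which libraries came from polyclonal and which from transgenic cells, nor whether libraries of a group came from separate mice or cultures. The p-values therefore measure the spread between these libraries, which may be technical in part, and the mice's age is not given in the sources used here.

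GIMAP proteins are small GTP-binding proteins of lymphocytes that share a GTPase domain named after a plant protein, AIG1. Several sit on intracellular membranes such as those of lysosomes and the endoplasmic reticulum, and loss of Gimap5 or Gimap1 in rodents leaves few mature T cells. The family is therefore studied for lymphocyte survival and quiescence, the state in which resting T cells persist on IL-7 and IL-15, and members have been described as binding BCL2-family proteins or, for GIMAP6, the autophagy protein GABARAPL2.

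The genes lie together on chromosome 6 of the GRCm38 assembly, in 123.618 kb from 48647234 to 48770851. In the order of increasing coordinates they are Gimap8, Gimap9, Gimap4, Gimap6, Gimap7, Gimap1, Gimap5 and Gimap3. Gimap6 and Gimap3 are on the minus strand and the other 6 on the plus strand. Gimap1os, a non-coding antisense gene at 48738346 to 48741444 on the minus strand, overlaps the 5′ part of Gimap1, and reads of the pair were told apart by strand because the counting was strand-specific. A readthrough gene, Gm28053, shares exon bases on the same strand with Gimap7 (3.48% of its exon bases), Gimap5 (3.69%) and Gimap1 (6.44%), where reads belong to no single gene. Gimap3 and Gimap5 are close paralogs: 7.52% of the 50-base windows of Gimap3 transcripts also occur in Gimap5, so reads lying wholly there fit both genes, and no option to count such reads was set. No window of Gimap4, Gimap8 or Gimap9 was shared with another gene.

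The 250 bases upstream of the RefSeq start of 4 members are printed here because these genes mark the range of behaviours described below. Gimap3 changed most during CD8 culture, Gimap5 was higher in CD8 than in CD4 libraries at both ages of culture, Gimap7 had the largest CD8 to CD4 difference after long culture, and Gimap1 passed no test. Sequences are from RefSeq on GRCm38.p6, read 5′ to 3′ on the strand of the gene, with matches to the motifs named below in capitals.
Gimap3, chr6:48770852-48771101, minus strand: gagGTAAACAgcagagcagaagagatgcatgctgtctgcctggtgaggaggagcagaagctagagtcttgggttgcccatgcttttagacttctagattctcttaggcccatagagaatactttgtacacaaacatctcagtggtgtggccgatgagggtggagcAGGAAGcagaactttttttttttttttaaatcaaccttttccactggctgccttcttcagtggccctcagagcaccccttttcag
Gimap5, chr6:48745947-48746196, plus strand, in an intron of Gm28053: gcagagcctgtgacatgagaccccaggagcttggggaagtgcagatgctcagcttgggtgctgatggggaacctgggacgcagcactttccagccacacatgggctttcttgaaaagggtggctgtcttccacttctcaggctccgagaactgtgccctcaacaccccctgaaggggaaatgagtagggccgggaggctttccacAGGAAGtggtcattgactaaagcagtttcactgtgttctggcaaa
Gimap7, chr6:48718371-48718620, plus strand, its last bases in the first exon of Gm28053: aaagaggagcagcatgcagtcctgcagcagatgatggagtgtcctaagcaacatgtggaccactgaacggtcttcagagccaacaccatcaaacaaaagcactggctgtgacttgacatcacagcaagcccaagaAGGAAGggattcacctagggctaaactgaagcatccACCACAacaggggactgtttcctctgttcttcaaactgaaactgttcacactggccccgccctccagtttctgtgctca
Gimap1, chr6:48738797-48739046, plus strand, opposite the exon of Gimap1os: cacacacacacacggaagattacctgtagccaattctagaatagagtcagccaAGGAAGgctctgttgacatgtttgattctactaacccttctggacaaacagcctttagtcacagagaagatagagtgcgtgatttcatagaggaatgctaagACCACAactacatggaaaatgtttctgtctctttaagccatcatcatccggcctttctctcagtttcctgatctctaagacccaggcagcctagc

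In all, 5 motifs were searched on both strands in 9 upstream windows of the 8 members (Gimap8 has a pair of starts). The letters AGGAAG, 1 form of an ETS site, occurred at 7 members, all but Gimap6, and in 29.5% of 32851 windows of the same length genome-wide. Other forms of an ETS site were not searched, and the window of Gimap6 holds cggaag, which differs in its first letter. The RUNX core TGTGGT, bound by RUNX factors of the T lineage, occurred at Gimap1, Gimap4 and Gimap7 and in 14.05% of all windows. The STAT motif TTCNNNGAA, bound by factors such as STAT5 downstream of IL-7 and IL-15 receptors, occurred at Gimap6 and Gimap8 and in 7.02% of all windows. At Gimap8 it overlaps the ETS match. The FOXO motif GTAAACA occurred at Gimap3 alone among the members, at position -247 from the start, and in 3.17% of all windows. The TCF and LEF core CTTTGA was in no member's window and in 13.8% of all. The matches are letters in these windows, and no binding was measured.

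Library totals ran from 13264302 to 28342449 assigned reads, and every member had at least 1124 counts in every library. All 8 passed the filter on low counts, as 13290 genes did. Cd3d, Cd3e and Cd3g together lay between 1014 and 1801 CPM (read counts scaled to the library total) in all 20 libraries. Cd4 followed the labels: it was at 0 in all CD8 week 4 libraries and at most 0.585 CPM in CD8 week 1, against 510.2 to 899 CPM in CD4 libraries. Replicates are numbered here by the order of the sample titles, so equal numbers at different ages need not be a pair. CD8 week 1 replicate 3 stood apart from its group, holding the highest value of the 5 libraries for 36.8% of the genes tested and the lowest for 37.7%. CD4 week 3 replicate 2 also stood apart, with 33.6% and 34.0%, but was the highest of its group for no member and the lowest for 1. Sample titles fall into separate number ranges, 1 with CD8 replicates 1 to 3 of both times, another with CD8 replicates 4 and 5, and the last with all CD4 libraries; what a range stands for is not given in the sources used here, and values within the CD8 ranges are set beside the pooled ones.

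The family was strongly expressed throughout. In CD8 cells the summed level of the 8 genes was 3327 ± 429 CPM (SD, n = 5) at week 1 and 5180 ± 360 at week 4, and in CD4 cells it was 4022 ± 682 at week 1 and 3946 ± 622 at week 3. All CPM values of GIMAP genes use library sizes scaled by the trimmed mean of M-values (TMM). Every CD8 week 4 library, at 4860 CPM or more, lay above every CD8 week 1 library, at 4000 CPM or less, while the CD4 ages overlapped. In bulk RNA of this kind, more RNA of a gene per cell and more cells that express it cannot be told apart. Gimap3, Gimap4 and Gimap6 gave most of the sum, and Gimap3 alone took 27.1% of the members' counts at week 1 and 35.3% at week 4 of CD8 culture, against 31.9% and 38.7% for the 2 ages of CD4 culture.

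Levels of different genes were compared per kb of exon. Gimap4, a member linked to T cell death in knockout mice, had the highest level per kb in CD8 week 1 (546 ± 122 CPM per kb), CD8 week 4 (774 ± 42.3) and CD4 week 1 (674 ± 116). Gimap3, a membrane-anchored paralog of Gimap5, was next in these groups with 348 ± 29.2, 710.1 ± 66.0 and 496 ± 78.4 CPM per kb, and first in CD4 week 3 with 590.7 ± 82.5 against 538 ± 97.8 for Gimap4. The 2 leading genes were apart, with no overlap of their libraries, in CD8 week 1 only. Gimap6 ranked 3 in every group, at 148 to 210.4 CPM per kb by group mean. Gimap7 ranked 4 in both CD8 groups and in CD4 week 1, where its libraries overlapped those of Gimap9, and 7 in CD4 week 3 at 57.7 ± 24.6 CPM per kb. Among Gimap8, Gimap9 and Gimap1, neighbours in the order overlapped in CD8 week 1 and in both CD4 groups, whereas in CD8 week 4 the genes were ordered at 106 ± 9.80, 87.0 ± 7.40 and 62.4 ± 11.8 CPM per kb without overlap. Gimap5 was last in all 4 groups, from 16.2 to 32.2 CPM per kb, below every library of the gene above it.

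**Figure D1:**
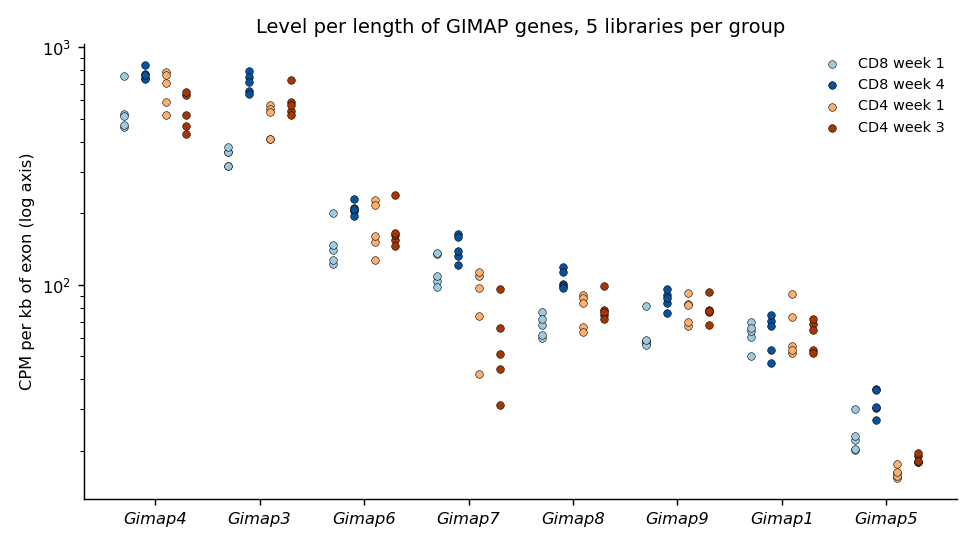
Level per length of the 8 GIMAP genes in each library (CPM per kb of exon, log axis), coloured by group, 5 libraries each. Gimap4 and Gimap3 lie at the top in all 4 groups, Gimap5 lies lowest in all of them, and Gimap7 falls below Gimap8, Gimap9 and Gimap1 by its mean in CD4 week 3 only.

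Between week 1 and week 4 of CD8 culture, 6 of the 8 members rose and none fell: Gimap3, Gimap8, Gimap6, Gimap4, Gimap9 and Gimap5. The 2 others, Gimap7 and Gimap1, did not pass the test. Of all genes tested here 17.1% rose and 16.4% fell, 33.5% in all (edgeR's quasi-likelihood fit, with a Benjamini-Hochberg adjusted p under 0.05 as the threshold). The members' median log2 fold change was 0.49, against 0.03 over all genes tested.

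Gimap3 rose most. Its levels in CD8 week 1 replicates 1 to 5 were 935, 934, 982, 819 and 816 CPM, and in CD8 week 4 they were 2053, 1925, 1680, 1847 and 1645 CPM. The groups did not overlap, and the log2 fold change was 1.03 (SE 0.112, edgeR adjusted p = 1.1e-05). GIMAP3 is a pseudogene in humans, and in mice the gene has been linked to the segregation of mitochondrial DNA. Gimap8, whose protein carries several GTPase domains in a row, was at 284, 249.9, 266, 220.3 and 227 CPM in week 1 and at 441, 420.3, 374, 365 and 361 CPM in week 4. Again no library of one age reached the other, with a log2 fold change of 0.65 (SE 0.113, edgeR adjusted p = 0.00053). Gimap3 and Gimap8 were the only members of the 8 without overlap in CD8 culture, where 11% of all genes were higher and 9.78% lower without overlap.

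Gimap5, required for the survival of naive T cells, was at 92.3, 96.4, 125, 83.6 and 84.6 CPM in week 1 and at 152, 150.3, 126, 127 and 112 CPM in week 4. Week 1 replicate 3 lay above week 4 replicate 5, so the ages overlapped, and the log2 fold change was 0.47 (SE 0.101, edgeR adjusted p = 0.0023). Gimap4 showed the same overlap through replicate 3. Its CD8 week 1 libraries were at 964, 943, 1395, 852 and 864 CPM and its CD8 week 4 libraries at 1553, 1371, 1418, 1357 and 1408 CPM (log2 fold change 0.50, SE 0.146, edgeR adjusted p = 0.0136). Without replicate 3 the log2 fold change of Gimap4 was 0.65. For Gimap6, whose protein takes part in autophagy, week 1 libraries lay at 492, 514, 701, 427 and 445 CPM and week 4 libraries at 808, 716, 684, 739 and 732 CPM, with replicate 3 of week 1 above the lowest of week 4. The log2 fold change was 0.51 (SE 0.165, edgeR adjusted p = 0.0233), and this did not pass when replicate 4 of week 1 (adjusted p = 0.0622) or replicate 5 of week 1 (adjusted p = 0.0597) was removed. Gimap9, a member that humans lack as a functional gene, was at 93.7, 94.9, 134, 91.4 and 96.5 CPM in week 1 and 137, 125, 150, 144 and 157 CPM in week 4 (log2 fold change 0.48, SE 0.114, edgeR adjusted p = 0.0041). Here too the only overlap came from week 1 replicate 3. That library had the highest value of its group for 5 of the 8 members. CD8 week 4 replicate 1 was the highest of its group for 6 members, and for 14.9% of all genes tested. CD8 week 1 replicate 4 was the lowest of its group for 6 members, and for 11.3% of all genes tested.

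Gimap7, a GTPase that acts through dimers, was at 313, 317, 242, 228 and 254 CPM in week 1 and 380, 369, 283, 307 and 323 CPM in week 4, with a log2 fold change of 0.30 (SE 0.255, edgeR adjusted p = 0.392). In a fit of the CD8 libraries alone it was 0.28 (edgeR adjusted p = 0.0904), where that fit called 32.8% of all genes tested. Replicates 1 and 2 were the high libraries at both ages, and the groups overlapped. Gimap1, which mature T and B cells need for survival, was at 185, 215, 155, 197 and 202 CPM in week 1 and at 216, 229, 144, 206 and 164 CPM in week 4. Its log2 fold change was 0.01 (SE 0.161, edgeR adjusted p = 0.976) and its sign was not stable under other scalings or when single libraries were left out.

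**Figure D2:**
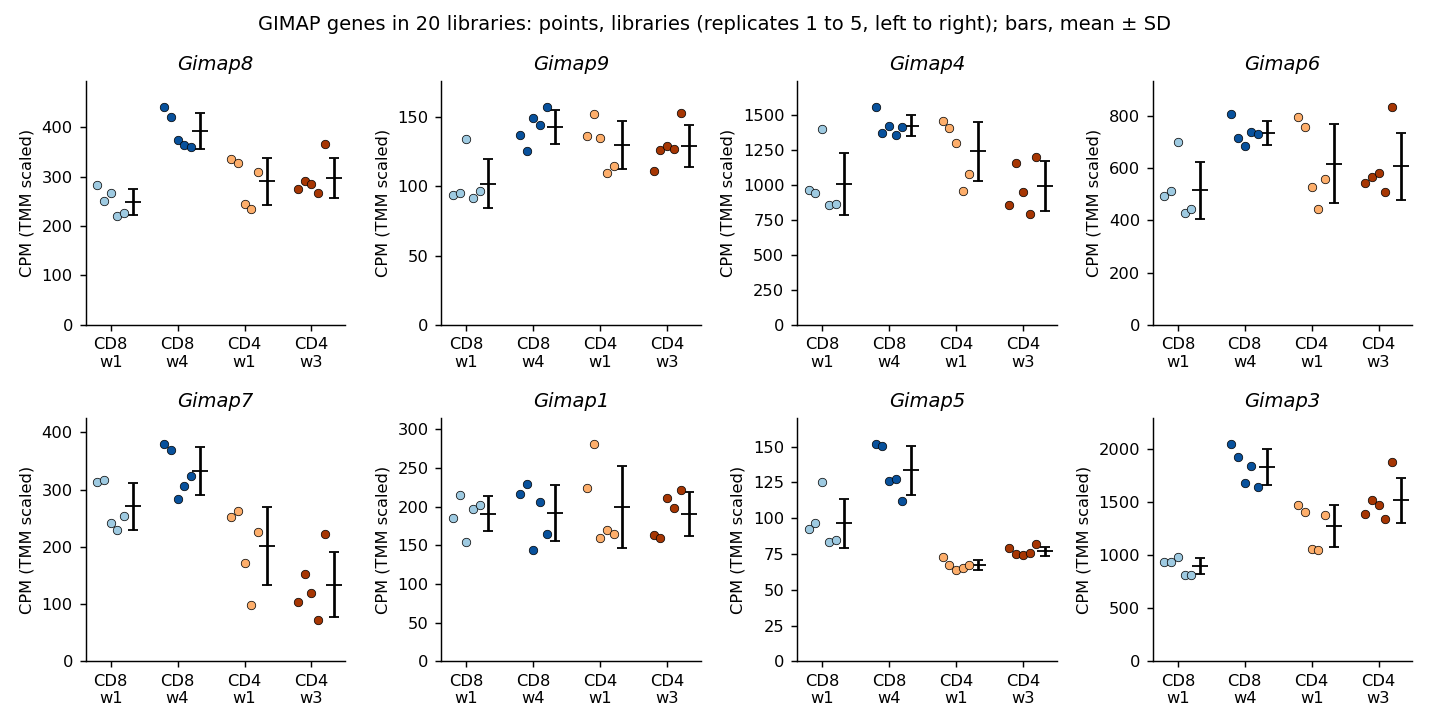
Level of each GIMAP gene in 20 libraries (CPM, linear axes from 0; w1, w3 and w4 are weeks of culture), with the mean and SD of 5 libraries per group. Gimap3 and Gimap8 separate CD8 week 4 from CD8 week 1 without overlap, Gimap5 separates CD8 from CD4 libraries, and 1 library of CD8 week 1 (replicate 3) and 1 of CD4 week 3 (replicate 5) lie high for several genes. CD8 week 4 replicate 1 is the highest of its group for 6 genes.

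Within the title range of CD8 replicates 1 to 3, the log2 fold changes were 0.99 for Gimap3, 0.63 for Gimap8, 0.45 for Gimap5, 0.40 for Gimap4, 0.37 for Gimap6 and 0.36 for Gimap9, and 3 members were called (Gimap3, Gimap5 and Gimap8), where that fit called 7.89% of all genes tested. Within the range of replicates 4 and 5 they were 1.09, 0.69, 0.50, 0.68, 0.75 and 0.68 in the same order, and 5 were called, all of the 6 except Gimap6, where that fit called 19.2% of all genes tested. All 6 log2 fold changes were positive in both ranges. Markers of other cells moved with the ages as follows. The NK list (Ncr1, Klrb1c, Klra8, Klra4 and Eomes) summed to 162 to 349 CPM in CD8 week 1 and 194 to 309 in CD8 week 4, most of it Eomes, which CD8 T cells express themselves. The B cell list of 6 genes summed to 164 to 482 CPM in week 1 and 73.7 to 220.4 in week 4, nearly all of it Ighm, with Ms4a1 and Pax5 at 0 in week 4. The myeloid list of 6 genes summed to 9.16 to 22.9 CPM in week 1 and 4.54 to 22.7 in week 4, most of it Cd68, with Lyz2 and C1qa at 0 in all 20 libraries. In CD4 week 1 the B cell list summed to 302 to 652 CPM and in CD4 week 3 to 298 to 467, nearly all of it Ighm. The NK list summed to 0.342 to 22.1 and 0.707 to 9.63 CPM at these ages, and the myeloid list to 1.54 to 2.83 and 1.66 to 3.69. The part of these markers in the GIMAP values was not tested.

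In CD4 culture no member passed the test between week 1 and week 3, where 7.67% of all genes tested rose and 8.8% fell, 16.5% in all (edgeR). At an unadjusted p under 0.05 there were 3 (Gimap3, Gimap4 and Gimap7), a level at which the share of all genes was not counted. DESeq2 and limma-voom also called none, where they called 21.2% and 17.6% of all genes tested. The members' median log2 fold change was -0.01, against 0.01 over all genes tested.

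Gimap7 had the lowest fold change of the 8. Its CD4 week 1 libraries were at 253, 263, 171, 98.4 and 226 CPM and its week 3 libraries at 103, 153, 119, 72.9 and 222 CPM. The ages overlapped widely, and the log2 fold change was -0.59 (SE 0.256, edgeR adjusted p = 0.115). It passed the test when CD4 week 1 replicate 4 was left out (log2 fold change -0.77, adjusted p = 0.0314) or CD4 week 3 replicate 5 (-0.85, adjusted p = 0.0338), the lowest library of the first age and the highest of the second. Gimap4 was at 1454, 1401, 1300, 957 and 1079 CPM in week 1 and 856, 1152, 949, 790.0 and 1197 CPM in week 3 (log2 fold change -0.32, SE 0.145, edgeR adjusted p = 0.129). Gimap3 was at 1476, 1412, 1062.9, 1056 and 1381 CPM in week 1 and 1391, 1521, 1478, 1341 and 1881 CPM in week 3 (log2 fold change 0.25, SE 0.111, edgeR adjusted p = 0.120). Both genes overlapped between the ages. Gimap5 lay at 73.2, 67.2, 63.7, 65.0 and 67.5 CPM in week 1 and at 78.9, 74.7, 74.6, 75.5 and 81.7 CPM in week 3. These narrow ranges did not overlap, where 4.27% of all genes were higher and 3.88% lower without overlap, yet the log2 fold change of 0.19 (SE 0.101) did not pass the edgeR test (adjusted p = 0.186). In a fit of the CD4 libraries alone the adjusted p of Gimap5 was 0.0604 (edgeR), where that fit called 9.29% of all genes tested. The other 4 members had log2 fold changes between -0.07 (Gimap1) and 0.03 (Gimap8). CD4 week 3 replicate 5 had the highest level of its group for all 8 members, and for 20.99% of all genes tested. CD4 week 3 replicate 4 was the lowest of its group for 5 members (18.2% of all genes). In CD4 week 1, replicate 1 was the highest for 5 members (19.6% of all genes) and replicate 4 the lowest for 6 (14.3%).

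**Figure D3:**
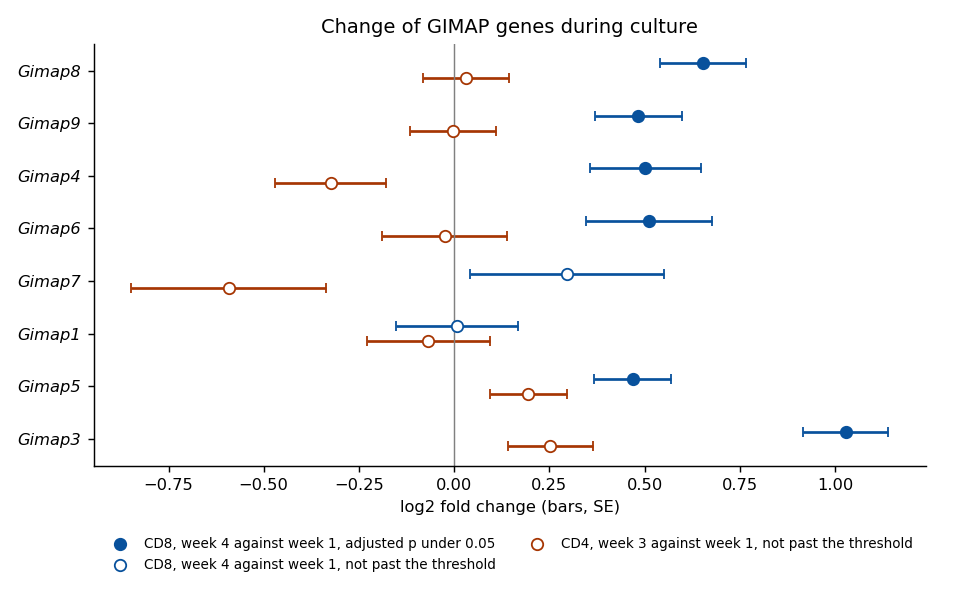
log2 fold change with its SE for each GIMAP gene, ordered by chromosome position, in CD8 culture (blue) and CD4 culture (brown); filled points have an adjusted p under 0.05. In CD8 culture 6 genes are filled, led by Gimap3 at 1.03, and in CD4 culture none is, with Gimap7 lowest at -0.59.

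The difference of the 2 culture changes was tested in the same fit, CD8 minus CD4, with the caution that the CD8 cells had 25 days of expansion and the CD4 cells 18. Gimap3 passed, with a difference of 0.78 on the log2 scale (SE 0.157, edgeR adjusted p = 0.0335), its rise being larger in CD8 culture. Of all genes tested 0.248% were called in this direction and 0.406% in the other, 0.655% in all. All 8 differences were positive, with a median of 0.58 against 0.01 over all genes tested, but the 7 besides Gimap3 did not pass. At an unadjusted p under 0.05 there were 6 members. The share of all genes at that level was not counted, and the shares above are for adjusted p. Gimap4 (difference 0.83, SE 0.206, edgeR adjusted p = 0.075) and Gimap8 (0.62, SE 0.159, adjusted p = 0.0837) came nearest to the threshold. Gimap7 had the largest difference, 0.89, with an SE of 0.361 (edgeR adjusted p = 0.327). The call of Gimap3 was close to the threshold: leaving out any 1 library moved the difference between 0.72 and 0.86 and the adjusted p between 0.0098 and 0.0709. The libraries whose removal ended it were replicates 2, 4 and 5 of CD8 week 1, replicate 1 of CD8 week 4, replicate 1 of CD4 week 1 and replicates 1, 3 and 4 of CD4 week 3. Within the title ranges the difference for Gimap3 was 0.74 (CD8 replicates 1 to 3, adjusted p = 0.205) and 0.84 (CD8 replicates 4 and 5, adjusted p = 0.122), each set against all CD4 libraries. These fits called 0.185% and 0.327% of all genes tested. Without CD8 week 1 replicate 3, Gimap4, Gimap8 and Gimap9 passed as well, but calls rose over all genes too. That fit called 2.36% of all genes tested, against 0.655% with all libraries.

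CD8 and CD4 cells were next compared, first at week 1, after 4 days of expansion in both. The 2 types carry different title ranges throughout, so cell type and title range cannot be told apart here. At week 1, 1 member was higher in CD8 cells and 2 were lower, where 19.1% of all genes tested were higher and 19% lower, 38.1% in all (edgeR). Gimap5 was higher in CD8 week 1, at 96.4 ± 17.0 CPM (SD, n = 5) against 67.3 ± 3.64 (log2 difference 0.52, SE 0.101, edgeR adjusted p = 0.00065), and every CD8 library lay above every CD4 library. Gimap3 was lower in CD8 week 1, at 897 ± 75.2 CPM against 1277 ± 202 in CD4 week 1 (log2 difference -0.51, SE 0.111, edgeR adjusted p = 0.00156), also without overlap. Of all genes 12.4% were higher and 11.3% lower without overlap. Gimap9 was lower in CD8 week 1, at 102 ± 18.0 against 130 ± 17.3 CPM (log2 difference -0.34, SE 0.114, edgeR adjusted p = 0.0232), with overlapping libraries. It did not pass in a fit of the week 1 libraries alone (adjusted p = 0.0655). Its call was also lost when any of CD8 week 1 replicates 1, 2, 4 and 5 or CD4 week 1 replicate 2 was left out (adjusted p from 0.0518 to 0.0620, -0.28 to -0.33 on the log2 scale). Without CD8 week 1 replicate 3, Gimap4 was also lower in CD8 cells (log2 difference -0.45, edgeR adjusted p = 0.0091). With the CD8 range of replicates 1 to 3 and that of replicates 4 and 5 taken in turn, the log2 difference was 0.63 and 0.32 for Gimap5, -0.43 and -0.64 for Gimap3, and -0.27 and -0.46 for Gimap9, where the first value of Gimap9 did not pass. These fits called 26.1% and 29.6% of all genes tested.

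After long culture the comparison is not matched in time, with 25 days of expansion for CD8 week 4 and 18 for CD4 week 3. There 4 members were higher in CD8 week 4 than in CD4 week 3 and none was lower, where 17.7% of all genes tested were higher and 15% lower, 32.7% in all (edgeR). Gimap7 differed most, at 332 ± 41.2 CPM (SD, n = 5) against 134 ± 57.2, a log2 difference of 1.31 (SE 0.259, edgeR adjusted p = 0.0008). Its lowest CD8 library had 283 CPM and its highest CD4 library 222. Gimap5 was at 133 ± 17.2 against 77.1 ± 3.13 CPM (log2 difference 0.79, SE 0.101, edgeR adjusted p = 1e-05), and Gimap4 at 1422 ± 77.7 against 989 ± 180 CPM (log2 difference 0.52, SE 0.146, edgeR adjusted p = 0.00986). These 3 genes did not overlap between the groups, where 11.3% of all genes were higher and 9.3% lower without overlap. Gimap8 was at 392 ± 36.3 against 297 ± 40.2 CPM (log2 difference 0.40, SE 0.113, edgeR adjusted p = 0.0106) and overlapped through CD4 week 3 replicate 5 at 367 CPM. Gimap3, at 1830 ± 170 against 1522 ± 213 CPM, did not pass (log2 difference 0.27, SE 0.111, edgeR adjusted p = 0.0737), but did without CD4 week 3 replicate 5 (0.35, adjusted p = 0.0192). Set against all CD4 week 3 libraries, CD8 replicates 1 to 3 gave log2 differences of 1.36 for Gimap7, 0.89 for Gimap5, 0.55 for Gimap4 and 0.47 for Gimap8, which all passed. CD8 replicates 4 and 5 gave 1.23, 0.63, 0.49 and 0.29, and the last 2 did not pass. The fit with CD8 replicates 1 to 3 called 29.0% of all genes tested, and that with replicates 4 and 5 called 13.1%. The 5 comparisons share libraries, so their values are not independent of each other.

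The members varied together from library to library to different degrees. The 20 libraries share the stated sort and expansion cytokines. Whether they were prepared together is not given, and each CD8 group holds libraries of both CD8 title ranges. Over the 20 libraries Pearson's r of log2 CPM was positive for all 28 pairs, with a median of 0.50. With each group centred on its mean it was positive for all 28 with a median of 0.60. The highest was between Gimap3 and Gimap8, 0.91 over the libraries and 0.95 when centred, although these genes stand at opposite ends of the cluster. Gimap1 had the lowest values, including 0.003 with its neighbour Gimap5. These correlations are descriptions, and libraries of 1 group are few. The same values were not taken for pairs of other genes, so no reference stands beside them.

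**Figure D4:**
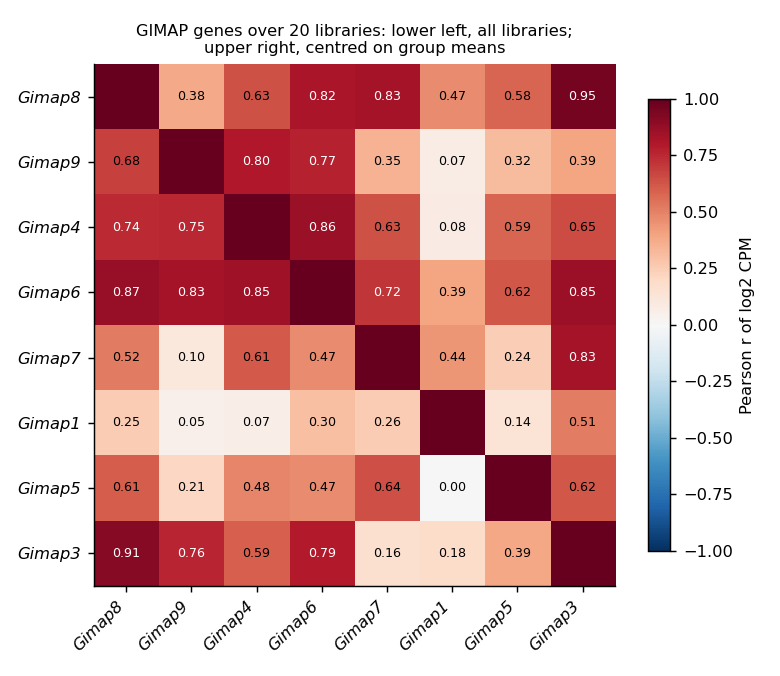
Pearson r between log2 CPM of the 8 GIMAP genes over 20 libraries (lower left) and after centring each group on its mean (upper right), in chromosome order. Gimap8 and Gimap3, first and last in the cluster, are the closest pair at 0.91 and 0.95, and the row of Gimap1 is the palest.

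The genes next to the cluster gave a different picture on each side. Before it, Zfp775 (24.0 kb from the cluster), Repin1 (48.2 kb) and Lrrc61 (76.5 kb) were called in neither culture comparison, with log2 fold changes from -0.09 to 0.13 in CD8 and -0.07 to 0.04 in CD4 culture (edgeR). After it, Tmem176b (63.0 kb) and Tmem176a (70.1 kb), which encode membrane channel-like proteins, rose in CD8 culture by 4.36 (SE 0.463) and 4.32 (SE 0.451) on the log2 scale and in CD4 culture by 1.52 (SE 0.411) and 1.53 (SE 0.401). Gpnmb, 266 kb away, was called in neither. Gimap1os, the antisense gene inside the cluster, was at 34.0 ± 9.27 CPM (SD, n = 5) at week 1 and 50.1 ± 7.44 at week 4 of CD8 culture, and at 38.0 ± 5.01 and 31.6 ± 8.05 CPM at the 2 ages of CD4 culture. It rose in CD8 culture (log2 fold change 0.56, SE 0.180, edgeR adjusted p = 0.0230), while Gimap1 on the other strand had a log2 fold change of 0.01, and it was not called in CD4 culture (-0.27, adjusted p = 0.312).

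**Figure D5:**
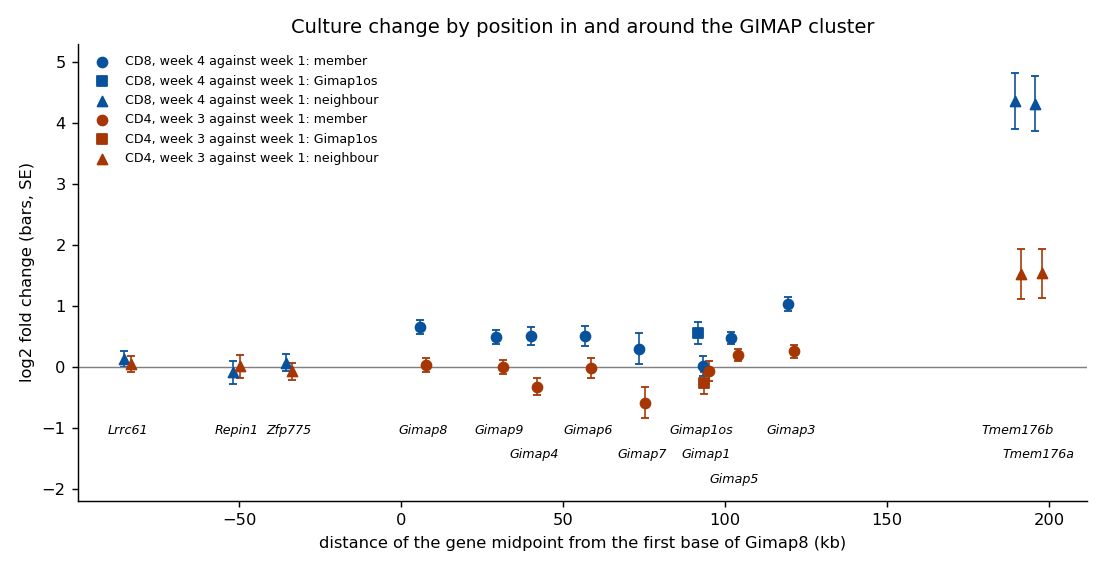
Culture change (log2 fold change with SE) of GIMAP genes (circles), Gimap1os (squares) and the nearest tested protein-coding genes (triangles) by distance of the gene midpoint from the first base of Gimap8, in CD8 (blue) and CD4 (brown) culture; Gpnmb, farther away, is not drawn. The 3 genes before the cluster lie near 0, and Tmem176b and Tmem176a after it lie far above every GIMAP gene in both cultures.

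Genes whose proteins have been described as binding or acting with GIMAP proteins were counted as a list of 12, all tested. In CD8 culture 6 of the 12 rose and none fell: Mcl1 (log2 fold change 0.67, edgeR adjusted p = 0.00015) and Bcl2 (0.49, adjusted p = 0.00048), which oppose apoptosis, Bcl2l11 and Bax, which promote it, and Gabarap and Gabarapl2, which act in autophagy. Of all genes tested 17.1% rose and 16.4% fell there, and the list's median log2 fold change was 0.18, against 0.03 over all genes. In CD4 culture none rose and 2 fell, Bak1 (-0.46, edgeR adjusted p = 0.0195), an effector of apoptosis, and Hspa8 (-0.30, adjusted p = 0.0292), a chaperone. Of all genes tested 7.67% rose and 8.8% fell there, and the list's median was 0.10, against 0.01 over all genes. None of the 12 passed the test of the difference between the cultures in edgeR, while DESeq2 called 1 and limma-voom none. Of all genes tested edgeR called 0.655% there, DESeq2 2.51% and limma-voom 0.549%. In edgeR 4 of the 12 had an unadjusted p under 0.05, a level at which the share of all genes was not counted.

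Other GTPase families of immune cells, the interferon-induced guanylate-binding proteins, immunity-related GTPases, Mx proteins and Gvin1, were counted as a list of 19, of which 18 were tested. In CD8 culture 1 of the 18 rose, Gvin1 (log2 fold change 0.82, SE 0.187, edgeR adjusted p = 0.00343), and none fell. In CD4 culture 1 fell, Igtp (-1.05, SE 0.337, edgeR adjusted p = 0.0408), and none rose. Here the tools differed: DESeq2 called 5 as lower, limma-voom called none, and 11 of the 18 had an unadjusted p under 0.05 in edgeR. The share of all genes at that unadjusted level was not counted. Of all genes tested 17.1% rose in CD8 culture and 8.8% fell in CD4 culture (edgeR). In either direction DESeq2 called 21.2% of all genes in CD4 culture, limma-voom 17.6% and edgeR 16.5%. The list's median log2 fold change was -0.06 in CD8 and -0.77 in CD4 culture, against 0.03 and 0.01 over all genes. The CD4 week 1 libraries stood far apart for these genes: Igtp was at 629.6 ± 425 CPM (SD, n = 5) there and at 305 ± 62.9 in CD4 week 3, and Gbp9, named after its values were seen, at 177 ± 195 and 72.2 ± 24.6 CPM.

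Of the genes searched, the 5 whose pattern over the 20 libraries was most like the mean of the members (each member's log2 CPM scaled to unit variance) were Zfp456 (Pearson r 0.89), Bcl6 (0.86), Dennd2d (0.86), Gabbr1 (0.84) and Cklf (0.84). Dennd2d was at 210.4 ± 14.6 CPM (SD, n = 5) in CD8 week 1 and 307 ± 36.9 in CD8 week 4. Bcl6, a repressor of transcription in T and B cells, was low, at 3.38 ± 0.626 CPM in CD8 week 1 and 7.01 ± 2.95 in CD8 week 4. The search covered tested genes outside the family and left out symbols that look predicted or unnamed. That rule also dropped named genes whose symbol starts with a capital letter and a digit. These genes were picked for their likeness, and the r values carry no test.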

How the data were processed

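PolyA RNA of sorted, cultured T cells was sequenced in 20 strand-specific libraries. The values are raw read counts per gene: per the submitters' processing notes the authors aligned reads with STAR to mm10, and per the file headers they counted exon reads with featureCounts 1.6.3 in reverse-stranded mode on GENCODE M12. Other values in the deposited table are exon lengths per gene. Symbols were matched to Ensembl IDs through GENCODE M21 (49326 of 49671 IDs), and upstream sequences came from RefSeq (GRCm38.p6). Reads that fit several genes are by that counting left out, which lowers counts where members share sequence.

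Genes were kept by edgeR 4.0.16 filterByExpr (13290), scaled by TMM, and fitted with 4 group means in 1 quasi-likelihood model of all 20 libraries in R 4.3.3. The p-values were adjusted over all genes tested, and a call is an adjusted p under 0.05. CPM per kb divides CPM by exon length. Alternatives were RLE, upper-quartile and unscaled totals, other filters, DESeq2 1.42.0, limma-voom (limma 3.58.1), subsets of libraries, title range as a term, and leaving out each library. The procedure was tested on simulated data. No pair of libraries of a group agreed within counting noise (chi-square per degree of freedom from 5.90 to 141 over 40 pairs), so each counted once.

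The members, lists and markers were chosen with earlier results of these data known. All 8 members are named in every comparison. From the 2 other lists the text names, per culture comparison, up to 2 called genes with the smallest adjusted p; the other called partners were named after their values were seen. It also names the 3 nearest tested protein-coding genes on each side and, of the genes searched, the 5 most like the members' mean. The value of 1 marker gene is not reported here.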

Additional observations from a re-analysis of the deposited data

Results flagged for a closer look

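In 36 sets of 5 libraries (8 members and Gimap1os in 4 groups), 4 held a library whose gap to the next exceeded Dixon's limit for 5 samples, 0.71 of the range; chance gives about 1 in 20. Gimap4 in CD8 week 1 replicate 3 was at 1395 CPM, with the other 4 libraries between 852 and 964. Gimap9 in the same library was at 134 CPM, with the others between 91.4 and 96.5. Gimap6 in CD4 week 3 replicate 5 was at 834 CPM, with the others between 508 and 580.5, and Gimap8 in that library was at 367 CPM, with the others between 267 and 291. The flags thus fell on 2 libraries, 2 genes each.

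Gimap3 was marked because its culture change differed between CD8 and CD4 cells by the interaction test, by 0.78 on the log2 scale (edgeR adjusted p = 0.0335).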

How the results depend on the processing

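No paired analysis was run, because the labels do not say which libraries share a mouse or culture. Title numbers alternate between week 1 and later libraries, but no label makes neighbours a pair. In CD8 culture 6 members were called under every scaling, filter and tool tried, 3 within CD8 replicates 1 to 3, and 5 to 6 when 1 library was left out; the share of all genes called ran from 7.89% to 39.8% over these fits. In CD4 culture the count of 0 became at most 1 when 1 library was left out, between 0 and 1. For the difference between cultures, the count of 1 became 3 with DESeq2 (Gimap3, Gimap4 and Gimap8), 0 within either CD8 title range, 0 without CD8 week 4 replicates 1 and 2 together, and 0 to 4 when 1 library was left out. For CD8 against CD4 at week 1 the count of 3 lay between 2 and 4 when 1 library was left out, and was 2 with the compared groups only and with CD8 replicates 1 to 3, where Gimap9 did not pass. After long culture the count of 4 became 2 with CD8 replicates 4 and 5 alone, 2 without CD8 week 4 replicates 1 and 2 together, and 4 to 5 when 1 library was left out. The share of all genes called ran from 6.55% to 27.1% in CD4 culture, 0.185% to 2.51% for the difference, 19.4% to 45% at week 1 and 13.1% to 40.4% after long culture. Fewer libraries are compared in the subsets; beyond that the cause was not tested.

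Signs turned only for values near 0, all on the log2 scale. Gimap1 in CD8 culture was -0.0104 with RLE and with DESeq2, -0.0111 with CD8 libraries alone, -0.0047 with limma-voom, -0.0283 with library totals, -0.11 with CD8 replicates 4 and 5 alone and -0.15 without CD8 week 4 replicates 1 and 2. For the difference between cultures these last subsets gave -0.0404 and -0.0853, and after long culture -0.0404 and -0.15, where upper-quartile scaling gave -0.0016 and the compared groups alone -0.0111. Gimap9 in CD4 culture was 0.0148 with upper-quartile scaling, 0.0117 with the 5 CPM filter and 0.00020 with limma-voom. Leaving out 1 library at a time, Gimap1 ran from -0.0630 to 0.0962 in CD8 culture, -0.14 to 0.0875 in CD4 culture, -0.0788 to 0.16 for their difference, -0.14 to 0.0886 between CD8 and CD4 at week 1 and -0.0611 to 0.0969 after long culture. In CD4 culture Gimap6 ran from -0.17 to 0.0833, Gimap8 from -0.0556 to 0.0884 and Gimap9 from -0.0699 to 0.0609.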

Other observations

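The balance between the 2 most abundant members moved in both lineages. This ratio was chosen after its values were seen and is given without a test. Per kb of exon, Gimap3 stood at 0.651 ± 0.0846 of Gimap4 (SD, n = 5) in CD8 week 1 and 0.918 ± 0.0755 in CD8 week 4, with libraries from 0.502 to 0.706 and from 0.833 to 1.00. In CD4 week 1 the ratio was 0.745 ± 0.120 and in CD4 week 3 it was 1.11 ± 0.101, with libraries from 0.583 to 0.913 and from 0.941 to 1.21. Within a library a ratio does not depend on the scaling of totals. Per kb, Gimap3 was 15.2 ± 1.46 times Gimap5 at week 1 and 22.2 ± 1.32 times at week 4 of CD8 culture, and 30.4 ± 3.65 and 31.7 ± 3.55 times at the 2 ages of CD4 culture.

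Other transcripts between the ends of the cluster were scarce. Over all 20 libraries 4833403J16Rik had 4229 counts, the readthrough gene Gm28053 had 2220, Gm44226 had 88 and Gm44262 had 2, against 612597 for Gimap3.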
